A study of Mus musculus with 32 samples.

Results

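The Ndn and Peg12 imprinted domain was followed through 7 of the 5723 chromatin-enriched RNA transcripts in the authors' deposited table, chosen because their name is Ndn or Peg12 or because they lie in a span of 0.9 Mb around these genes on mouse chromosome 7 (mm10). All 7 members met both conditions: 6 were intergenic transcripts that carry the name of Ndn, and 1 was the gene transcript of Peg12. Peak lists of MapR, an assay for R-loops, added 14 peaks at 7 sites in the same span. The domain was selected on the cheRNA log2 fold changes of that table, so those values are a description without a test, while the MapR peaks did not enter the choice.

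The groups were mouse embryonic stem cells of the wild type (WT) and with a Histone H1 triple KO (H1-TKO, here TKO), both grown in serum medium with LIF and without further treatment. The labels do not say whether the TKO cells are 1 clone, nor whether replicates were separate cultures. Chromatin-enriched RNA (cheRNA) is the RNA that stays in the chromatin pellet after nuclei are lysed with urea and detergent, and 3 samples per genotype stand behind the table. In MapR, RNase H fused to micrococcal nuclease (RNH) cuts beside RNA-DNA hybrids; 2 RNH libraries per genotype and 1 control library per genotype with the nuclease alone (MNase only) were used. The table lists changed transcripts only, with 1 log2 fold change each, no value per sample and no p-value, so the level of a marker gene of embryonic stem cells cannot be read from it. Its sign was set so that the transcripts of Hist1h1d, Hist1h1e and Hist1h1c, known as background to be the deleted genes, are lower in TKO, at -5.02, -4.83 and -3.61 on the log2 scale of the authors' deposited table. The direction of every cheRNA value below rests on that inference.

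Imprinted genes are expressed from the copy inherited from 1 parent only, and in the domain around Ndn the protein-coding genes Ndn, Magel2, Mkrn3 and Peg12 are expressed from the paternal copy under an imprinting control region at Snrpn. Loss of the paternal copy of the corresponding human region causes Prader-Willi syndrome. Ndn and Magel2 encode proteins of the MAGE family, Mkrn3 a zinc-finger protein of the makorin family, and Peg12 a relative of the Frat proteins, which bind the kinase GSK3 in Wnt signalling. Linker histone H1 binds nucleosomes and the DNA between them and compacts chromatin.

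The sequences that identify the region are the small RNAs encoded within the higher non-coding transcripts and the DNA of Peg12. RefSeq lists 11 microRNA hairpins in the span, all of the Mir344 family, and 5 of them (Mir344, Mir344-2, Mir344g, Mir344f and Mir344i) lie inside member transcripts on the same strand. Their mature sequences from RefSeq (GRCm38.p6, the mm10 assembly) are shown 5′ to 3′ to identify these hairpins, with the seed, bases 2 to 8, in capitals. Mir344 and Mir344-2 give the same mature pair.
mmu-miR-344-5p: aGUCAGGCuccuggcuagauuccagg
mmu-miR-344-3p: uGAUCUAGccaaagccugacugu
mmu-miR-344g-5p: aGUCAGGCuccuggcaggagu
mmu-miR-344g-3p: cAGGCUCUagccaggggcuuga
mmu-miR-344f-5p: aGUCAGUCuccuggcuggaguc
mmu-miR-344f-3p: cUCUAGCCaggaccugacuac
mmu-miR-344i: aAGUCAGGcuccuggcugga
The 5p forms of miR-344 and miR-344g share the seed GUCAGGC, and no other seed is shared among these 7 mature names. The microRNAs themselves were not measured.

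The DNA of Peg12 is shown in 2 stretches because Peg12 is the 1 coding gene of the span with a listed transcript and with a peak in each TKO library. The first is the 250 bases before its RefSeq start, at chr7:62464511-62464760 on the minus strand. The second is 300 bases around the summit of the peak of TKO RNH replicate 1, at chr7:62463925-62464224 on the minus strand, inside the coding sequence of Peg12. CpG dinucleotides are in capitals.
Peg12 promoter: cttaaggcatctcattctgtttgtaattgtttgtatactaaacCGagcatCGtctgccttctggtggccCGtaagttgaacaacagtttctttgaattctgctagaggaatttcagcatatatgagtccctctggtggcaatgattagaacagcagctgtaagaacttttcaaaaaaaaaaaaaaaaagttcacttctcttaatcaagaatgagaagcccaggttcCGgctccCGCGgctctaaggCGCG
Peg12 peak: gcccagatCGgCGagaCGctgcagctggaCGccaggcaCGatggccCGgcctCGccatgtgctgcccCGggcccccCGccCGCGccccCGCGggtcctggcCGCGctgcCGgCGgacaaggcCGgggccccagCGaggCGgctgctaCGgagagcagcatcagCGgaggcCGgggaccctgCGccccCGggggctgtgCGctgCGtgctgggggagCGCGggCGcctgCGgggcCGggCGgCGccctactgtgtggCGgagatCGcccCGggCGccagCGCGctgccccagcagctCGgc
The promoter window holds 8 CpG dinucleotides and is 42% G and C, beside a median of 6 and 52.4% over the 32851 RefSeq promoters cut to the same 250 bases. The peak window holds 41 CpG dinucleotides and is 80.7% G and C. The letters GCATGCGC, GGGCGG and TATAAA, known from the NRF1 motif, the Sp1 motif and the TATA box, were searched on both strands. All were absent from the Peg12 window, and in that order they are present in 2.26%, 32.7% and 12.4% of all these promoters. In the same window before the other RefSeq starts, Ndn had GCATGCGC only, Magel2 had GGGCGG and TATAAA, and Mkrn3 had none of the motifs. GENCODE starts Ndn farther upstream, at 62346569, so the window of Ndn lies inside the gene as annotated there.

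All 7 member transcripts were higher in TKO in the authors' deposited table, where 60.1% of all listed transcripts and 58.8% of the 337 on chromosome 7 were higher. All 7 also lay on the minus strand. Their median was 3.65 on the log2 scale of the authors' deposited table, a 12.6-fold difference. By class, the 6 intergenic members stood beside 74.0% of listed intergenic transcripts that were higher, and Peg12 beside 45.0% of listed gene transcripts. The rule used these values, so nothing is read from the shares.

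The non-coding members formed a row that starts at Gm9801, an annotated long non-coding RNA gene, and runs away from Ndn on the opposite strand to it. In the authors' deposited table the first, nearest the 5′ side, ran from 62018288 to 62209397 (191110 bp) with a log2 of 2.86, a 7.28-fold difference. It overlaps Gm9801, Mir344f and Mir344i, and its 5′ end lies 82 bp from the annotated start of Gm9801. It is the longest member, and only 4 of the other 1428 higher intergenic transcripts (0.280%) are at least as wide. Next came 2 transcripts with nearly equal values in the authors' deposited table. The transcript from 61979831 to 62012473 (32643 bp), over Mir344g and reaching the 5′ end of A330076H08Rik, a long non-coding RNA gene, had a log2 of 3.65 in the authors' deposited table, 12.6-fold. The transcript from 61967695 to 61975767 (8073 bp), within A330076H08Rik, had 3.61 in the authors' deposited table, 12.2-fold.

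The 3 members farthest from Ndn had the highest values of the domain. The transcript from 61900176 to 61958781 (58606 bp), which holds Mir344-2 and spans the border of A330076H08Rik and A230057D06Rik, had a log2 of 4.03 in the authors' deposited table, 16.4-fold. The transcript from 61866359 to 61897050 (30692 bp), which holds Mir344 and lies in A230057D06Rik, a further long non-coding RNA gene, had 4.52 in the authors' deposited table, 22.9-fold. The last and shortest, from 61782402 to 61784889 (2488 bp) in A230057D06Rik, had 4.65 in the authors' deposited table, 25.1-fold. Log2 values in the authors' deposited table therefore differed by 1.78 between the first and the last transcript along the strand, a 3.44-fold ratio, with 1 inversion between neighbours (3.65 before 3.61). Over the 6 transcripts Spearman's rho was 0.94 with the order along the strand and -0.60 with width, which share the same 6 points and the same samples and are given as a description. Among the 1434 higher intergenic transcripts, 631 (44.0%) had a log2 at least as high as the first of the row. For the last of the row it was 227 (15.8%), in the authors' deposited table.

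**Figure D1:**
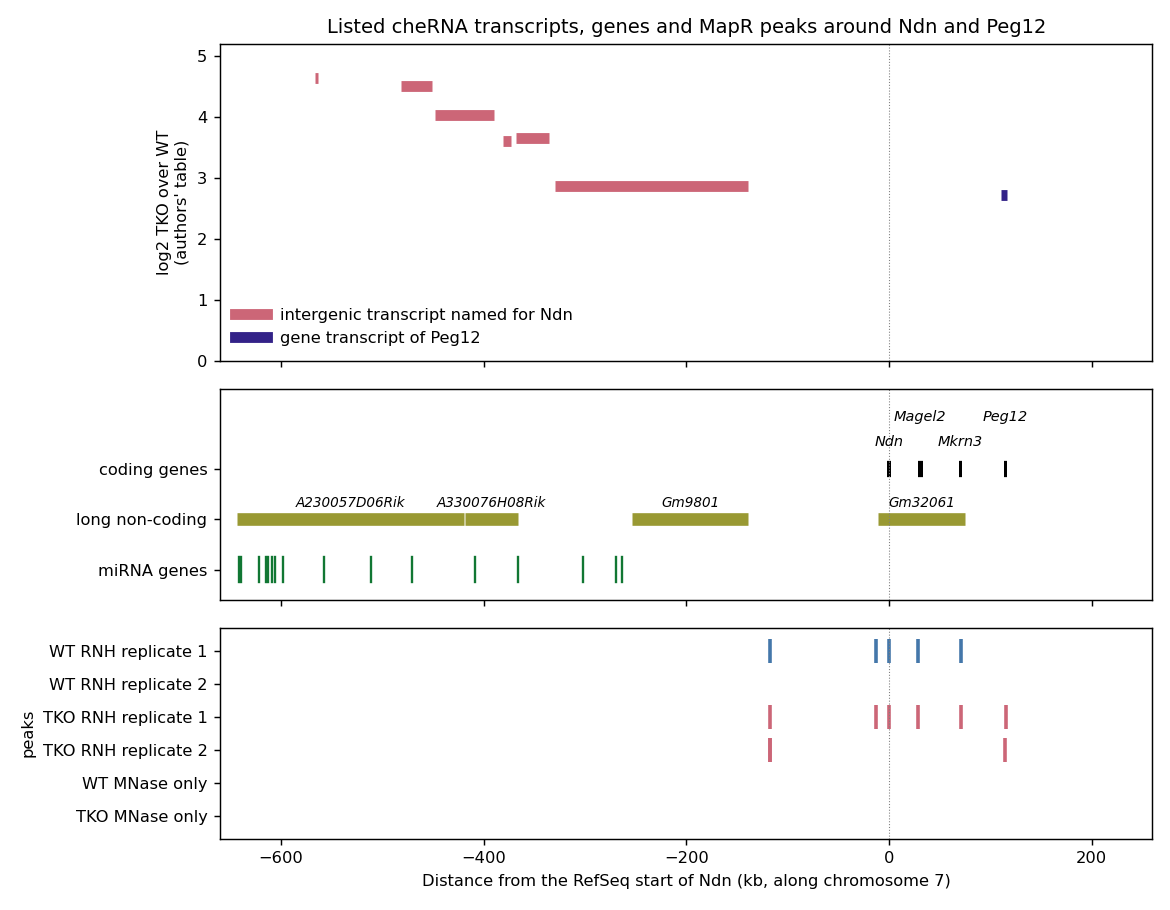
The upper panel plots the log2 fold change of each listed transcript (TKO over WT, authors' deposited table) against distance from the RefSeq start of Ndn in kb, the middle panel the annotated genes, and the lower panel the MapR peaks of each library as ticks. The 6 intergenic transcripts step from 2.86 near Ndn to 4.65 at the far left, above no tick, and the ticks stand over Ndn, Magel2, Mkrn3, Peg12 and 2 sites between Gm9801 and Ndn.

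Although classed as intergenic, all 6 overlap an annotated long non-coding RNA gene or microRNA gene on their own strand, and none overlaps Ndn, whose RefSeq start is 138880 bp from the nearest and 565876 bp from the farthest end. Gaps between neighbours ran from 3125 to 81469 bp. The 6 together span 426996 bp, of which they cover 75.8%. Values per transcript therefore cannot tell 6 separate RNAs from pieces of fewer long ones, since the table does not state how pieces were joined.

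In base composition the 6 intergenic members were poor in G and C. Their median was 36.9% G and C, against 44.8% in the other 1428 higher intergenic transcripts, of which 7.00% were at or below the highest member. CpG dinucleotides stood at a median of 3.37 per kb in the members and 10.8 per kb in the others. The letters GGACT, a form of the m6A consensus, had a median of 0.615 per kb in the members and 0.881 per kb in the others, read on the transcript's strand. These medians were not adjusted for the lower share of G and C, and m6A itself was not examined. The repeat-masked share was similar, at 27.1% and 27.2%. Members share a neighbourhood, so these medians describe 1 region and not 6 independent ones.

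Rows of this kind under 1 name were counted among the listed transcripts. Of 1376 names with an intergenic transcript, 13 had at least 6, the number of Ndn itself. In 7 of these all pieces were higher, and in 4 (Bcl11a, Gm5148, Ndn and Sox5) they were also on 1 strand. These limits were taken from the transcripts of Ndn, so nothing is read from how few names meet them. Ndn was the third of the 4 by median log2 in the authors' deposited table, at 3.84, behind Bcl11a at 5.81 and Gm5148 at 5.76 and ahead of Sox5 at 3.07. Spearman's rho of log2 with order along the strand was 0.94 for Ndn, -0.63 for the 9 pieces of Bcl11a, 0.21 for the 7 of Gm5148 and 0.35 for the 10 of Sox5, as a description of the authors' deposited table. The span held 7.78 listed transcripts per Mb, against 2.32 on chromosome 7 and 2.10 in the genome. The span was selected on these listed transcripts, which may be pieces of fewer RNAs, so nothing is read from its density.

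Peg12 was the only coding gene of the span with a listed gene transcript. The transcript ran from 62458837 to 62464489 (5653 bp) and had a log2 of 2.72 in the authors' deposited table, a 6.59-fold difference. It starts 21 bp inside the annotated gene (62461871 to 62464510) and runs 3034 bp past the annotated 3′ end. Of the 1307 higher gene transcripts of the authors' deposited table, 301 (23.0%) were as high or higher, and the median of the 1307 was 1.89. Unlike the intergenic members it was rich in CpG, at 29.2 per kb with 49.1% G and C, and GGACT stood at 1.42 per kb. The 3 gene transcripts nearest to Peg12 by log2 in the authors' deposited table were Olig3, Rgs6 and AU022751, at 2.72, 2.72 and 2.73. Ndn, Magel2 and Mkrn3 had no gene transcript in the table, which means only that none passed the authors' selection.

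**Figure D2:**
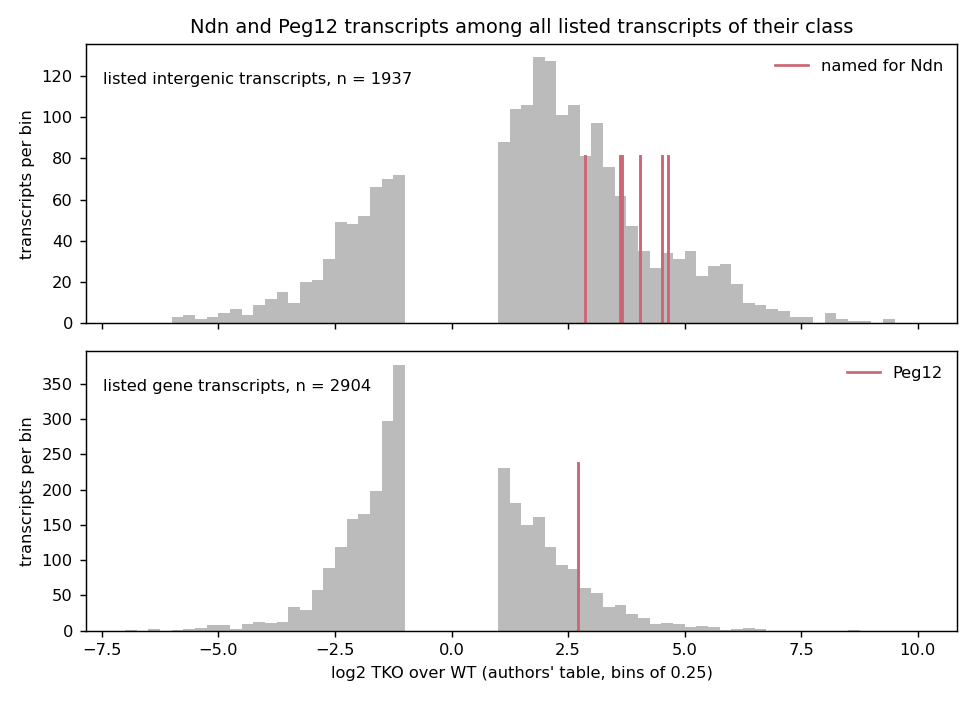
Numbers of listed transcripts per bin of 0.25 log2 (TKO over WT, authors' deposited table) for the intergenic class above and the gene class below, with the members as vertical lines. All 6 intergenic members lie right of the class's higher-transcript median of 2.63, from 2.86 to 4.65, and Peg12 at 2.72 lies right of 1.89.

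MapR peaks stood over the coding side of the domain and not over the non-coding transcripts. The number of peaks in the span was 5 in WT RNH replicate 1, 0 in WT RNH replicate 2, 6 in TKO RNH replicate 1 and 3 in TKO RNH replicate 2, and both MNase-only libraries had 0. The MNase-only lists hold only 568 (WT) and 582 (TKO) peaks in all, so their 0 in a short span says little about background there. The RNH lists also differ in length, with 22336, 6612, 25392 and 6458 peaks in the same library order. The peaks were therefore also taken as a share of each list. That share was 0.0224% and 0% in the WT libraries and 0.0236% and 0.0465% in the TKO libraries. Both TKO values were above both WT values, although the 2 libraries of replicate 1 were nearly equal. Of the 3 peaks of TKO RNH replicate 2, 2 lie at the same site (62230979 to 62231611), so the share of that library counts 1 site as 2 peaks. The mean difference was 0.0238 percentage points (2 against 2 libraries, two-sided exact permutation test, p = 0.333, the smallest this design allows). It was 0.0127 points without WT RNH replicate 2 and 0.0124 points without TKO RNH replicate 2. These p-values measure only the spread between these libraries, which may be technical.

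The length of the span under peaks was 2697 and 0 bp in the WT libraries and 4145 and 704 bp in the TKO libraries. The groups overlapped, and the mean difference of 1076 bp was within the spread between libraries (two-sided exact permutation test, p = 0.667). It changed sign without WT RNH replicate 2, to -272.5 bp, and without TKO RNH replicate 1, to -644.5 bp; without WT RNH replicate 1 it was 2424.5 bp and without TKO RNH replicate 2 it was 2796.5 bp. The libraries of replicate 1 were above those of replicate 2 in both genotypes.

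None of the 6 intergenic members overlapped a peak in any of the 4 RNH libraries. By library, 22.2%, 7.25%, 23.9% and 10.7% of the 1434 higher intergenic transcripts overlapped a peak in WT 1, WT 2, TKO 1 and TKO 2. Of all 1434, 66.2% overlapped no such peak, and of the 109 at least as wide as the median member (31667.5 bp) 31.2% did not. The 6 lie in 1 stretch of 660241 bp free of RNH peaks. Its nearest peaks are 21581 bp upstream of the first transcript and 211664 bp downstream of the last. A region without a peak has none that passed the authors' threshold at the depth of these libraries, which is unknown.

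Peg12 was the only member with a peak. The number of member transcripts with a peak was 0 in both WT RNH libraries and 1 in both TKO RNH libraries, a difference of 1 (two-sided exact permutation test, p = 0.333, the smallest this design allows). In TKO RNH replicate 1 the peak ran from 62463625 to 62464287 with a fold enrichment over background of 4.11 and a -log10 q of 7.72. In TKO RNH replicate 2 it ran from 62462276 to 62462617, in the 3′ untranslated region, with 4.13 and 2.85. The peaks do not overlap: 1007 bp lie between them, and their summits are 436 and 1973 bp from the start of Peg12. Of the 1307 higher gene transcripts, 31.5%, 6.50%, 37.9% and 11.3% overlapped a peak in WT 1, WT 2, TKO 1 and TKO 2. A peak in both TKO and neither WT library was present on 0.788% of 21951 coding genes and on 0.842% of these transcripts. With peaks of -log10 q of at least 5 the peak of TKO RNH replicate 2 was lost, and with each list cut to its strongest 6458 peaks that of TKO RNH replicate 1 was lost; the difference was then 0.5 (exact permutation p = 1). In WT 1, WT 2, TKO 1 and TKO 2 the span held 1, 0, 6 and 0 peaks at the stricter threshold and 1, 0, 2 and 3 with equal lists. At the stricter threshold TKO RNH replicate 2 was therefore not above the WT libraries, and the mean difference in peak share was 0.0164 percentage points (exact permutation p = 1).

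The paternally expressed coding genes Ndn, Magel2 and Mkrn3 had peaks in both libraries of replicate 1 and in neither of replicate 2. At the RefSeq start of Ndn, the site from 62348131 to 62348958 had a fold enrichment of 3.58 in WT RNH replicate 1 and 4.64 in TKO RNH replicate 1. At the start of Magel2 (62376889 to 62377306) these values were 3.26 and 4.40. In Mkrn3 (62418942 to 62419980) they were 3.81 and 4.15. The 3 sites also lie within Gm32061, an annotated long non-coding RNA gene. Together, 3, 0, 4 and 1 of the 4 coding genes of the span had a peak in WT 1, WT 2, TKO 1 and TKO 2, beside 49.1%, 14.2%, 54.2% and 15.2% of all coding genes.

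Another pair of sites lay outside every annotated gene. The site from 62334846 to 62335806, upstream of Ndn, had the highest fold enrichment of the span, 5.30 in WT RNH replicate 1 and 5.90 in TKO RNH replicate 1. Within their own lists 7.93% and 4.95% of peaks were as high. The site from 62230979 to 62231611, between Gm9801 and Ndn, was the only one with peaks in 3 libraries: 3.69 in WT RNH replicate 1, 4.47 in TKO RNH replicate 1 and 4.20 for each of 2 peaks in TKO RNH replicate 2. The fold enrichments are the authors' values and place each peak within its own list only.

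**Figure D3:**
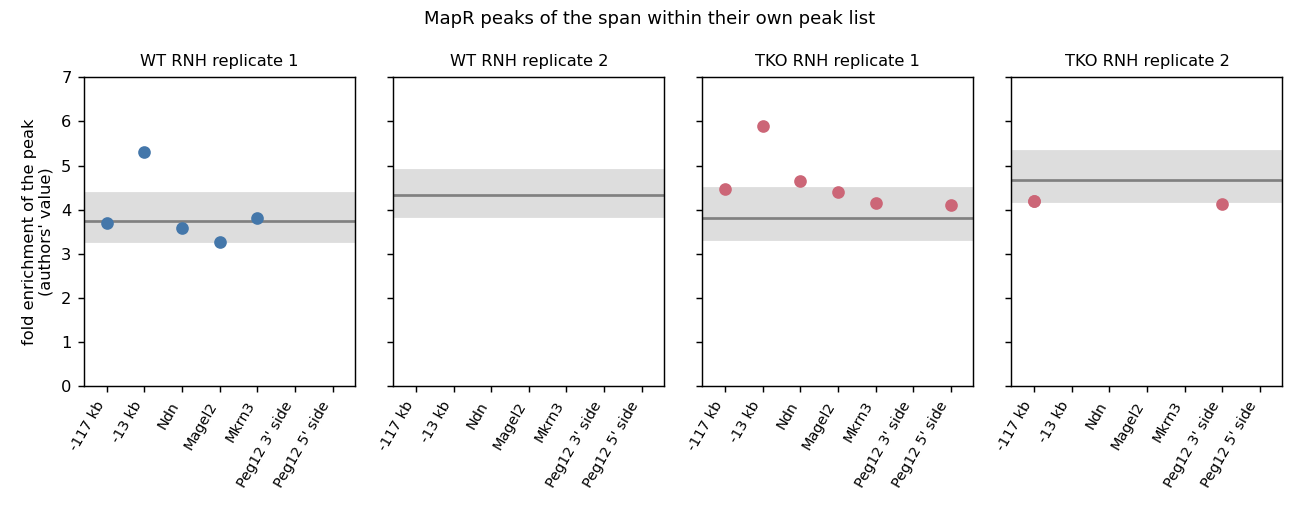
Fold enrichment of each peak of the span (points, authors' values) by site in each RNH library, with the median of the library's own list as a line and its interquartile range as a grey band. The site upstream of Ndn lies above the band in both libraries of replicate 1, the points of TKO RNH replicate 2 lie below its median of 4.67, and WT RNH replicate 2 has no point.

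Around the summits, the Peg12 peak of TKO RNH replicate 1 stood apart from the other peaks of the span by its base composition. Its 300 bases, shown above, were 80.7% G and C, and 0.855% of the summits of that library were as rich, where the median was 62%. Its 41 CpG dinucleotides compare with a median of 17, and 5.39% of summits held as many. The peak of TKO RNH replicate 2 on Peg12 had 58% G and C and 3 CpG dinucleotides in the same window size, beside medians of 56.7% and 10 in its own library. The peaks at Ndn had 64.3% in WT RNH replicate 1 and 59.3% in TKO RNH replicate 1, with 26 and 18 CpG dinucleotides.

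The listed transcripts on both sides of the domain were far away and partly of opposite sign. Between 57 and 67 Mb of chromosome 7 the authors' deposited table holds 30 transcripts, of which 10 were higher, the 7 members among them, and 20 were lower. Of the lower ones, 10 carry the name of Gabrg3 alone. Over all of chromosome 7, 58.8% of listed transcripts were higher. The nearest below the span are 2 gene transcripts named Snurf-Snrpn, for the bicistronic gene at the imprinting control region, with log2 values of -1.76 and -2.16 in the authors' deposited table (3.38-fold and 4.47-fold lower). They lie at 60117231 to 60130797 and 60102315 to 60113805, over the upstream part of Snrpn and outside the annotated Snurf. Still farther, 10 transcripts of Gabrg3, a GABA-A receptor subunit gene, had log2 values from -2.78 to -2.32 in the authors' deposited table. The nearest above the span were an intergenic transcript named for Klf13 and gene transcripts of Trpm1 and Apba2, at 2.03, 2.52 and 1.20 on the log2 scale of the authors' deposited table. Farther above, up to 67 Mb, all listed transcripts were lower, named for Fam189a1-Ndnl2, Tm2d3, Pcsk6, Lrrk1 and Cers3. Their log2 values ran from -2.34 to -1.11 in the authors' deposited table. Members just inside the limits of the span begin at 61782402 and end at 62464489.

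**Figure D4:**
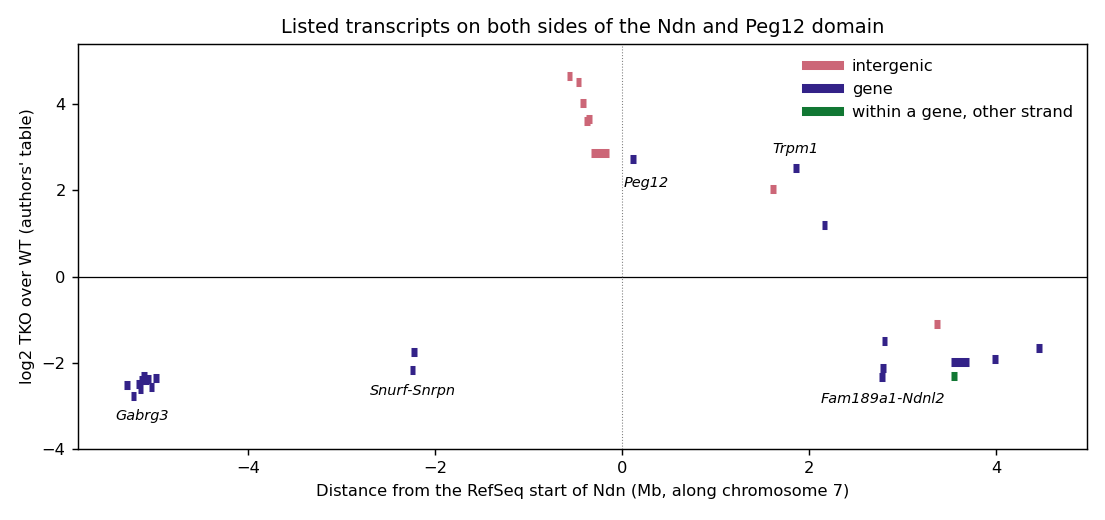
Log2 fold change (TKO over WT, authors' deposited table) of all 30 listed transcripts between 57 and 67 Mb of chromosome 7 against distance from the RefSeq start of Ndn in Mb; transcripts too short to see are drawn with a minimum width. The 7 members lie between 2.72 and 4.65, while Snurf-Snrpn and Gabrg3 on the left lie between -1.76 and -2.78. The transcripts farthest right, from Fam189a1-Ndnl2 on, lie between -1.11 and -2.34.

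Of 18 annotated genes of the wider imprinted domain and its flank, 1 (Peg12) had a higher gene transcript and 3 by name (Gabrg3, Snrpn and Snurf, where the last 2 share the same transcripts) had a lower one. Over all coding genes 4.26% had a higher and 4.99% a lower listed gene transcript in the authors' deposited table. Of 42 imprinted genes elsewhere, 4 had a higher gene transcript and 7 a lower one, counting Usp29, which had both, in each. The highest was 1 of the transcripts of Usp29, a gene beside Peg3, at 3.35, while another was at -1.35 in the authors' deposited table. Among the other higher ones were Sfmbt2, a polycomb-related gene, at 1.78 for the higher of its 2 transcripts, and Phlda2, a growth regulator of the placenta, at 1.31 on the log2 scale of the authors' deposited table. Nnat was the remaining higher one, at 1.03 in the authors' deposited table. Peg10, a retrotransposon-derived gene of the placenta, was lower at -2.52 in the authors' deposited table. Also lower there were Kcnq1, from -2.84 to -1.99 over its transcripts, Ppp1r9a at -2.08, Plagl1 at -1.76, Sgce at -1.37 and Cobl at -1.16. Imprinted genes in the list therefore moved in both directions.

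Genes in the pathways of the coding genes were counted by list, with the share over all coding genes for reference. By the authors' deposited table, 4.26% of all coding genes had a gene transcript that was higher in TKO. For 4.99% a gene transcript was lower. The lists are short, so nothing is read from their counts. Of 9 MAGE genes and partners, none had a higher gene transcript; the lower transcripts with the joined name Fam189a1-Ndnl2 lie over Fam189a1 and not over Nsmce3, the current symbol of Ndnl2. The list had 4 intergenic transcripts, all higher, named for Magee1, a MAGE gene, at 1.13, 5.24 and 5.55, and for Trim27, an E3 ligase, at 1.83 in the authors' deposited table, where 74.0% of all listed intergenic transcripts were higher. Of 12 Frat genes and partners 1 had a higher gene transcript: Axin2, a scaffold of the complex that destroys beta-catenin, at 1.16 in the authors' deposited table. Of 13 genes that set or maintain imprints, 1 was higher, Dppa3, which protects maternal methylation, at 3.01 in the authors' deposited table. Another 2 were lower, Dnmt3l, a cofactor of de novo methylation, at -1.07 and the histone methyltransferase gene Ehmt2 at -1.38, in the authors' deposited table.

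Markers of neural cells, in which Ndn is strongly expressed, were listed beside these results. Of 12, 4 had a higher gene transcript (Tubb3 at 2.77, Otx2 at 1.94, Pax6 at 1.52 and Ncam1 at 1.12) and 1 a lower one (Olig2 at -1.17) on the log2 scale of the authors' deposited table. Over all coding genes 4.26% had a higher and 4.99% a lower listed gene transcript in the authors' deposited table. Of 16 pluripotency markers 1 was higher (Dppa3 at 3.01) and 1 lower (Klf5 at -2.23) in the authors' deposited table. Of 8 fibroblast markers 1 was higher (Vim at 2.25) and none lower. Of 8 endoderm markers 1 was higher (Sparc at 1.06) and 3 lower (Dab2, Col4a1 and Col4a2). Of 7 mesoderm markers 1 was higher (Gsc at 3.03) and 1 lower (Bmp4 at -2.86), again in the authors' deposited table. Of the transcripts of other classes named for these markers, 5 of 5 were higher for the neural list, 11 of 13 for pluripotency, 4 of 4 for endoderm and 3 of 5 for mesoderm in the authors' deposited table, and the fibroblast list had 0. These counts include transcripts that are not intergenic, named for Rbfox3, Tubb3, Klf2 and Sparc. Of all listed intergenic transcripts 74.0% were higher, and of listed transcripts of all classes 60.1%. Summed levels cannot be given, since the table has no value per sample, and the part of these markers in the result was not tested. In bulk samples, more cells of a type and more RNA per cell cannot be told apart.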

How the data were processed

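The domain was measured in 6 MapR libraries and in 6 cheRNA samples, the latter through a single series-wide table; the other assays were not analysed here. Groups follow the sample labels. The tools were MACS2, BWA, TopHat2, DESeq2, bedtools and SAMtools on mm10, per the submitters' processing notes; their versions and the control behind each peak list were not given in the sources used here. All log2 fold changes are the authors' deposited values; the smallest absolute value is 1.00, and they were multiplied by -1. Each deposited peak list gives the fold enrichment (a ratio), the -log10 p and -log10 q and a score, as the authors' caller wrote them for 1 library. Depth is unknown, as the lists hold no read counts.

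Transcripts and peaks were set against GENCODE release M21 and RefSeq by overlaps of at least 1 bp with Python 3.11.15, numpy 2.4.6 and scipy 1.17.1, and figures were drawn with matplotlib 3.10.9. The overlap routine was tested on simulated intervals and the permutation routine on small fixed inputs. For the 2 against 2 libraries an exact permutation test, two-sided, was used. The labels share replicate numbers between genotypes but do not say that a number marks a shared culture or day, so the samples were not treated as paired. Named are all members, the annotated genes discussed in the span, list members with a listed gene transcript, and the 3 gene transcripts nearest to Peg12. Of list members with listed transcripts of other classes only, some are named. Bcl11a, Gm5148 and Sox5, the transcripts around the span and the H1 genes are named too, chosen with their values in view. The base composition of peak summits and the rank of peaks within lists were added after the data had been seen. Members and lists were chosen with earlier results of these data known. Alternatives were a stricter peak threshold, equal list lengths, other denominators, the removal of control peaks, overlap by summit, leaving out each RNH library, a replicate block, and other rules for the member transcripts.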

Additional observations from a re-analysis of the deposited data

How the results depend on the processing

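The alternatives for the member transcripts (by name only, by span only, absolute log2 of at least 2, pieces within 1 kb merged) changed none of the 7 transcripts, since all meet both conditions, the lowest log2 is 2.72 and the shortest gap is 3125 bp; the count of 7 and the median of 3.65 were thus not put to a test. The difference in peak share kept its direction in every alternative run, from 0.0124 to 0.0353 percentage points with 1 library left out. Removal of the control peaks left every peak in the span and changed only the list lengths. The covered length reversed without WT replicate 2 (-272.5 bp) and without TKO replicate 1 (-644.5 bp), over a range from -644.5 to 2796.5 bp; the cause was not tested. The number of member transcripts with a peak differed by 1 whichever library was left out, and by 0.5 with the stricter threshold or equal lists. With the replicate number as a block, the differences were the same, 0.0238 points, 1076 bp and 1, each with an exact p of 0.5, the smallest that 2 pairs allow. No p passed 0.05 under any setting, and with 2 libraries per genotype none could.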
